A study of Mus musculus with 4 samples.

Results

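A set of 8 huntingtin-interacting protein genes (Hap1, Hip1, Hip1r, F8a, Zdhhc17, Optn, Sh3gl3 and Pacsin1) was read from the mRNAs that stayed in polysomes of mouse striatal cells after a ribosome run-off. They were chosen by name, as genes of known huntingtin partners, and make up 8 of the 53465 genes counted, of which 7 had enough reads to be tested. PS-RRA-mRNA-Seq compared 2 control libraries (STHdhQ7/Q7) with 2 HD-homo libraries (STHdhQ111/Q111), all from C57/BL6 cells that carry a knock-in Htt exon 1. The knock-in holds 7 glutamine repeats in both alleles of the control line and 111 in both alleles of the HD-homo line, and both groups received harringtonine, which lets elongating ribosomes finish while no new ones start, before polysome fractions were collected. The cells are immortalized striatal cells and the libraries of a group came from 1 line, so the repeat cannot be told apart from any other difference between the lines. The study describes the libraries of a group as independent experiments, and the labels say no more. Each p-value thus sets the difference between the lines against the spread between libraries of 1 line. That spread is estimated with help from all tested genes. The question of the comparison was which messages are held on the slow ribosomes of HD-homo cells.

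Huntingtin is a large scaffold protein without a known enzymatic activity, and much of what is known of it comes from its partners. Its N-terminal part, where the glutamine repeat lies, and its helical repeats bind proteins that move vesicles along microtubules, build clathrin-coated pits, bend membranes, attach palmitate and bring cargo to autophagosomes. HAP1 and PACSIN1 are known above all from neurons, while the clathrin adaptors and optineurin are made in many cell types.

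The libraries held 14122706 and 15472808 counts in control and 12372090 and 14074182 counts in HD-homo. Levels are given as CPM (counts scaled to the size of each library by edgeR's trimmed mean of M-values, TMM), with SD over n = 2 libraries, and a gene was called higher or lower at an adjusted p under 0.05 in edgeR's quasi-likelihood test of all 12961 tested genes. Of these, 21.2% were called, 10.4% higher and 10.9% lower in HD-homo, and the median log2 fold change was 0.00. Both libraries of one group lay above both of the other in 57.2% of tested genes, and 0.333 is the smallest p that an exact two-sided permutation of 2 libraries with 2 allows. Of 13 striatal projection neuron markers, the dopamine receptor genes Drd1 and Drd2 had 0 counts in every library. The list summed to between 63.7 and 153 CPM per library, most of it Foxp1. Of 16 pan-neuronal markers Rbfox3, Snap25, Syt1 and Dcx had 0 counts, while Stmn2, Uchl1, Tubb3 and Map2 were counted in every library. That list summed to between 90.0 and 222 CPM. The progenitor list summed to between 3138 and 6365 CPM, nearly all of it Vim. Its genes Nes, Sox2 and Pax6 were at most 4.82 CPM in HD-homo. The mesenchymal list summed to between 5127 and 7636 CPM. A lower value in a bulk library can stand for fewer cells with the mRNA or for less mRNA per cell, and in polysome RNA also for less mRNA in polysomes, and these cannot be told apart here.

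Of the 8 genes, Optn was higher and Hap1 was lower in HD-homo polysomes, 5 were not called and Pacsin1 had too few reads to test. With 1 of 7 tested members higher beside 10.4% of all tested genes and 1 of 7 lower beside 10.9%, the members were called about as often as genes at large. Their median log2 fold change was -0.28, and in 3 of the 7 (Hap1, F8a and Optn) the groups did not overlap, beside 57.2% of all tested genes.

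**Figure D1:**
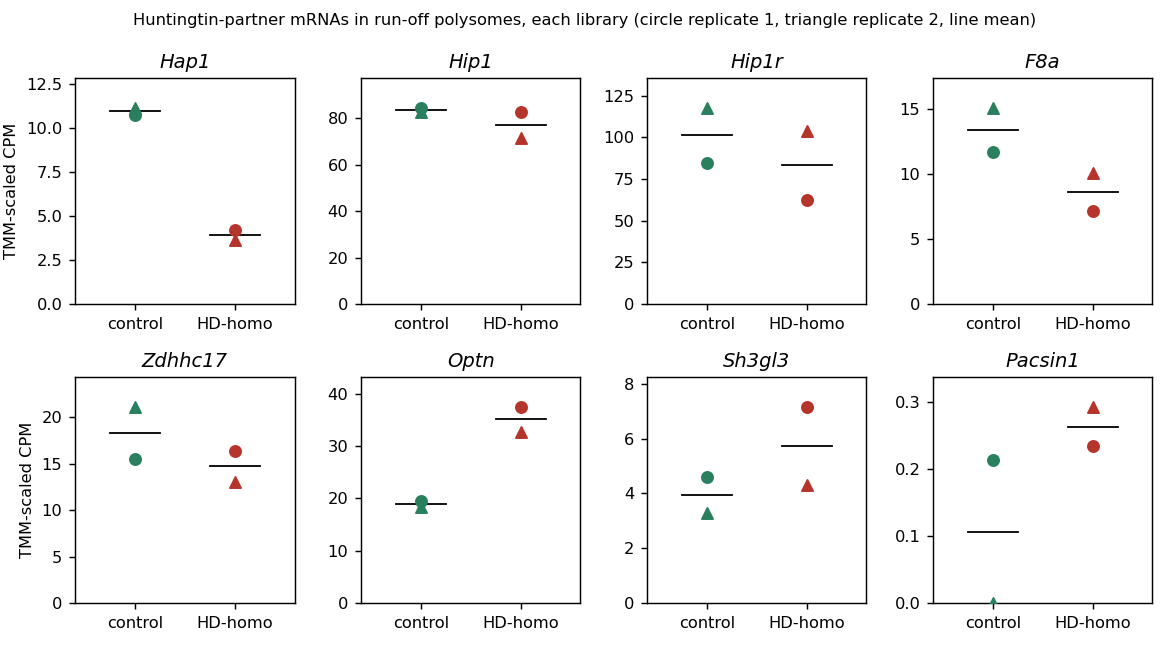
TMM-scaled CPM (linear axis from 0, scaled separately in each panel) of the 8 huntingtin-partner genes in each library, with circles for replicate 1, triangles for replicate 2 and a line at the mean of each group. The control points of Hap1 lie at 10.8 and 11.2 CPM against 4.20 and 3.65 CPM in HD-homo, those of Optn lie below the HD-homo points, and Pacsin1 stays under 0.30 CPM in every library.

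The sequences upstream of Hap1 and Optn are shown because these are the members that were called, in opposite directions. Each is the 250 bases before the most upstream start that RefSeq lists (GRCm38.p6), written 5′ to 3′ on the strand of the gene, with capitals where a searched motif lies.
Hap1, chr11:100356142-100356391 (minus strand): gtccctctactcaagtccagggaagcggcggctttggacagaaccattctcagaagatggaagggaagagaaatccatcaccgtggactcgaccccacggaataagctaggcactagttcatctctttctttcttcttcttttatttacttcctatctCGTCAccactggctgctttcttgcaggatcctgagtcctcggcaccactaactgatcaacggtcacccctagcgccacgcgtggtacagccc
Optn, chr2:5064118-5064367 (minus strand): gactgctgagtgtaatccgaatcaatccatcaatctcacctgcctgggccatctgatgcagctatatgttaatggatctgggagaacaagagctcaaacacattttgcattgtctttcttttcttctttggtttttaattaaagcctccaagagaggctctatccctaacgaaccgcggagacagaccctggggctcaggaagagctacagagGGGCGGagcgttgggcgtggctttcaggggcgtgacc
In Hap1 the capitals mark CGTCA, the reverse complement of TGACG, the core of the cyclic AMP response element, and in Optn they mark the GC box GGGCGG. On both strands, TGACG occurred in 17.8% and GGGCGG in 32.7% of the 32851 RefSeq promoter windows of this length, so neither run of letters is rare. TATAAA (12.4% of windows), CCAAT (33.9%) and CACGTG (6.02%) were not in these 2 windows. All 8 members had a RefSeq window. GGGCGG was also found once each upstream of Hip1 and Sh3gl3, at 2 places for Pacsin1 and at 4 for Hip1r, CCAAT once each for Hip1, F8a and Sh3gl3, and TATAAA once for F8a. None of the 5 motifs was found upstream of Zdhhc17, whose window held 82.0% G and C, against 52.0% for Hap1 and a median of 52.4% over all windows.

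Hap1 encodes huntingtin-associated protein 1, an adaptor that joins huntingtin-bearing vesicles to dynactin and kinesin and is known best from neurons. Its gene (ENSMUSG00000006930) lies on chromosome 11 of GRCm38 from 100347327 to 100356128 on the minus strand. The libraries held 152 and 170 counts in control and 54 and 50 counts in HD-homo, or 10.8, 11.2, 4.20 and 3.65 CPM. Both HD-homo libraries lay far below both control libraries, and the spread within each group was small beside that gap. The group levels were 11.0 ± 0.29 CPM in control against 3.93 ± 0.39 CPM in HD-homo (SD, n = 2), 2.79-fold lower in HD-homo. The log2 fold change was -1.48 (standard error, SE, 0.28, 95% interval -2.08 to -0.88, edgeR adjusted p = 0.00141). It stayed called in each of 11 alternative settings, with adjusted p from 7.79e-08 to 0.00734 and values from -1.57 to -1.38 on the log2 scale.

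Of the pan-neuronal markers, 5 of the 7 that could be tested were also lower, and the other 2 were not called. Among the lower ones, Elavl2 (4 and 1 counts in HD-homo), Gap43 (4 and 4) and Ina (12 and 5) passed the count filter through control. Over all tested genes 10.4% were called higher and 10.9% lower, beside which the counts of each marker list stand. The summed level of all 16 was 184 and 222 CPM in control against 90.0 and 104 CPM in HD-homo. Most of this difference lay in Stmn2 and in Uchl1 (69.7, 71.1, 33.8 and 35.6 CPM). Tubb3 (13.2, 30.0, 14.8 and 36.4 CPM) and Map2 (24.2, 39.7, 29.0 and 24.8 CPM) were not called, and their groups overlapped. Stmn2, a regulator of neuronal microtubules, was at 63.9 and 61.3 CPM in control against 10.5 and 5.70 CPM in HD-homo. The defining neuronal genes Rbfox3, Snap25, Syt1 and Dcx were at 0 in all libraries. The striatal projection neuron list did not move as 1 group, with Ppp1r1b and Foxp1 higher and Adora2a and Pde10a lower among 5 tested. Ppp1r1b (4, 4, 14 and 20 counts) passed the count filter only through HD-homo. Adora2a (45, 26, 7 and 3 counts) and Pde10a (29, 28, 7 and 9 counts) passed it only through control, so such calls follow partly from the filter. The list summed to 63.7 and 68.3 CPM in control and to 153 and 125 CPM in HD-homo, most of it Foxp1 (55.9, 62.5, 148 and 116 CPM). Of the progenitor and astrocyte list 1 of 7 tested was higher and 3 were lower. Its sum (4851 and 6365 CPM in control, 3138 and 3874 in HD-homo) was nearly all Vim, which was not called, while the progenitor factors Pax6 (40.6, 40.0, 0.23 and 0.15 CPM) and Sox2 (96.1, 89.9, 4.20 and 4.82 CPM) and the filament gene Nes (48.8, 122, 2.18 and 1.75 CPM) were lower and Glul (29.7, 31.9, 116 and 132 CPM) was higher. Of the mesenchymal list 4 of 9 tested were higher and 2 lower, and its sum (5127 and 7636, then 5975 and 5738 CPM) held large differences in opposite directions. The actin gene Acta2 was lower (3772 and 5169, then 430.5 and 333 CPM), as was Tagln, and the collagen genes Col1a1 (687 and 1439, then 3702 and 3601 CPM) and Col1a2 (16.8 and 19.7, then 1121 and 1125 CPM), Pdgfra (0.99 and 1.18, then 36.3 and 40.1 CPM) and Dcn were higher. Of the 8 microglial markers Aif1, Cx3cr1, Itgam and C1qa were at 0 counts in all libraries and 2 were tested. Csf1r was higher (0.42, 0.53, 1.79 and 1.31 CPM, from 6, 8, 23 and 18 counts) and Tmem119 was not called (39.3, 41.2, 26.4 and 24.7 CPM). Csf1r passed the count filter only through HD-homo, and Pax6 (3 and 2 counts in HD-homo) only through control. The part of these lists in the differences of Hap1 and Optn was not tested.

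The tested genes whose profile over the 4 libraries lay closest to that of Hap1 were Zfhx4, a large zinc finger and homeobox factor (Euclidean distance of mean-centred log2(CPM + 0.5) 0.039), Hecw1, a ubiquitin ligase (0.050), and Zdhhc16, a palmitoyltransferase (0.069). Zdhhc16 fell from 203 and 197 CPM in control to 82.6 and 71.6 CPM in HD-homo. Zfhx4, at 1.27, 1.38, 0.23 and 0.15 CPM, and Hecw1, at 0.92, 0.92, 0.078 and 0 CPM, were at levels where the added 0.5 is a large part of each value. With 4 libraries the distance mostly records the step between the groups.

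Trak1 and Trak2 encode the closest relatives of HAP1, which tie mitochondria to kinesin and dynein. Trak1 was at 90.8 and 66.7 CPM in control against 84.9 and 67.5 CPM in HD-homo (log2 fold change -0.05, SE 0.23), and Trak2 at 68.4, 69.9, 76.6 and 53.8 CPM (log2 fold change -0.09, SE 0.23). Neither was called and the groups overlapped in both. Per kilobase of the longest coding transcript, Hap1 made up 10.4% and 12.4% of the summed level of the 3 genes in the control libraries and 4.30% and 4.92% in the HD-homo libraries, while Trak1 held 45.9 to 56.3%. With merged exons as the length, these shares were 14.5%, 16.3%, 5.97% and 6.96%. By either length both HD-homo libraries had less than 0.5 of the control share of Hap1.

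**Figure D2:**
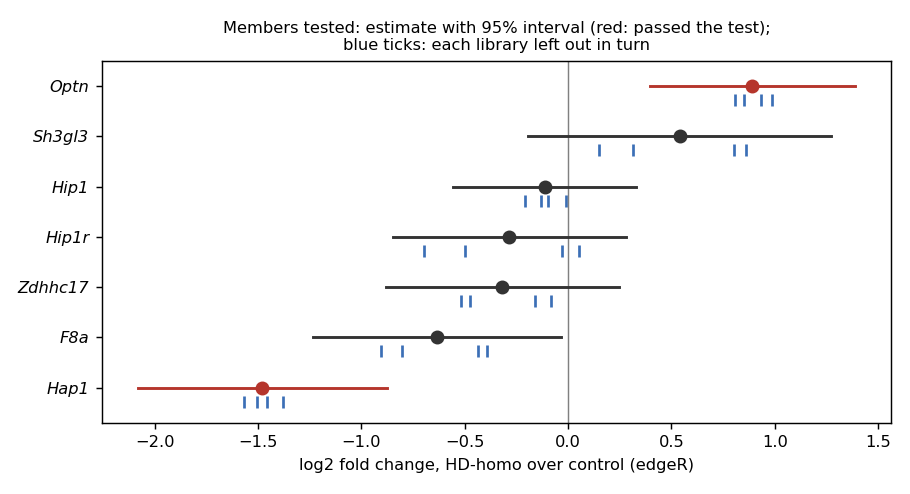
Log2 fold change of HD-homo over control for the 7 tested members (point, edgeR estimate, with its 95% interval as a bar), red where the adjusted p was under 0.05, and blue ticks for the estimate with each of the 4 libraries left out in turn. The intervals of Hap1 and Optn lie clear of 0, that of F8a ends at -0.03, and the ticks of Hip1r fall on both sides of 0.

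Optn encodes optineurin, an autophagy receptor that binds ubiquitin on cargo, LC3 and GABARAP proteins on the autophagosome, the GTPase RAB8 and the motor myosin VI. The gene (ENSMUSG00000026672) lies on chromosome 2 from 5020642 to 5064051 on the minus strand. It had 275 and 280 counts in control and 482 and 448 in HD-homo, or 19.5, 18.4, 37.5 and 32.7 CPM. The groups did not overlap, and the control libraries were nearly equal. The mean rose from 18.9 ± 0.75 to 35.1 ± 3.38 CPM (SD, n = 2), a ratio of 1.86 and a log2 fold change of 0.89 (SE 0.23, 95% interval 0.39 to 1.39, edgeR adjusted p = 0.0124). The call was lost without control replicate 2 (log2 fold change 0.85, adjusted p = 0.0653) and without HD-homo replicate 1 (0.81, adjusted p = 0.0540), although the size of the difference changed little.

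Within each library the level of Optn per kilobase was 2.30 and 2.09 times that of Hap1 in control, and 11.3 and 11.4 times in HD-homo. This ratio follows from the 2 differences above and was not tested apart from them. Ikbkg (NEMO), the ubiquitin-binding relative of optineurin in NF-kappaB signalling, was at 29.2 and 28.1 CPM in control against 39.4 and 37.5 CPM in HD-homo. Its groups did not overlap either, but its log2 fold change of 0.42 (SE 0.22) did not pass the test (edgeR adjusted p = 0.219).

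Of 13 genes of selective autophagy that work with optineurin, all tested, 3 were higher, beside 10.4% of all tested genes. Their median log2 fold change was 0.11 against 0.00 over all genes. For lower genes the count was 0 in edgeR, DESeq2 and limma-voom, and 0 at an unadjusted p under 0.05 in edgeR. With 13 genes and 10.9% of all tested genes called lower, a count of 0 says little by itself. Gabarapl1 and Map1lc3a, which encode autophagosome membrane proteins of the kind that optineurin binds, rose from 88.9 and 92.8 to 142 and 178 CPM and from 86.6 and 79.6 to 132 and 157 CPM. Their log2 fold changes were 0.82 (SE 0.21, edgeR adjusted p = 0.0109) and 0.80 (SE 0.20, adjusted p = 0.0116). Rab8b, a paralog of the optineurin partner RAB8A, rose from 24.1 and 24.7 to 46.4 and 34.5 CPM (log2 fold change 0.73, adjusted p = 0.0423). The call of Rab8b was also lost in limma-voom (adjusted p = 0.0522), which called 2 higher genes in the list, and when every library had to hold at least 10 counts (0.0604). The count of higher genes in the list was 1 or 0 with control replicate 1 or 2 left out, and 2 or 1 with HD-homo replicate 1 or 2 left out, respectively. The other receptors and the kinase were not called: Sqstm1 (p62) had a log2 fold change of -0.23 (SE 0.25) and Tbk1, the kinase that phosphorylates optineurin, of -0.15 (SE 0.24), and their group ranges overlapped.

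F8a encodes HAP40, the 40-kDa partner that forms a stable complex with full-length huntingtin and, in human cells, joins it to RAB5 on early endosomes. The gene (ENSMUSG00000078317) is a short one on chromosome X, from 73228291 to 73230795 on the plus strand. Its counts were 165 and 230 in control and 92 and 138 in HD-homo, or 11.7, 15.1, 7.16 and 10.1 CPM. Both HD-homo libraries lay below both control libraries, but the gap between the nearest libraries was smaller than the spread inside either group. The means were 13.4 ± 2.43 and 8.62 ± 2.07 CPM (SD, n = 2), and the log2 fold change of -0.63 (SE 0.28, 95% interval -1.24 to -0.03) did not pass the test over all genes (edgeR adjusted p = 0.140). Of 8 early endosome genes that act with RAB5, all tested, 0 were called by edgeR, DESeq2 or limma-voom, and 0 had an unadjusted p under 0.05 in edgeR. Over all tested genes edgeR called 21.2%. The log2 fold changes of the 8 genes ran from -0.22 for Rab5a to 0.35 for Appl2, with a median of 0.14.

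The mRNA of huntingtin itself was lower in HD-homo polysomes. Htt was at 27.1 and 28.2 CPM in control against 8.95 and 4.16 CPM in HD-homo (log2 fold change -2.08, SE 0.32, edgeR adjusted p = 3.24e-04). Both HD-homo libraries lay well below both control libraries, and they differed from each other by more than the control libraries did.

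Of 19 further genes of huntingtin partners, Htt included, 17 were tested and 3 were lower, beside 10.9% of all tested genes. Their median log2 fold change was -0.14. None was called higher by edgeR, DESeq2 or limma-voom, and 1 had a higher level with an unadjusted p under 0.05 in edgeR. Besides Htt these were Rasa1, the GTPase-activating protein of RAS, at 48.1 and 58.3 CPM in control against 30.2 and 33.1 CPM in HD-homo (log2 fold change -0.75, edgeR adjusted p = 0.0275), and Dlg4, the postsynaptic scaffold PSD-95, at 106, 92.3, 66.1 and 59.6 CPM (log2 fold change -0.66, adjusted p = 0.0370). The call of Dlg4 was lost whichever library was left out, and that of Rasa1 was lost without control replicate 2 or either HD-homo library, so the count of lower genes was 2 without control replicate 1 and 1 without any of the other libraries.

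Hip1 and Hip1r encode the related adaptors huntingtin-interacting protein 1 and HIP1-related, which bind clathrin, membrane lipids and, most firmly in HIP1R, actin. Hip1 (ENSMUSG00000039959, chromosome 5, 135406531 to 135545120, minus strand) had 1195, 1260, 1066 and 981 counts, or 84.5 and 82.7 CPM in control against 82.9 and 71.6 CPM in HD-homo. The groups overlapped, and the levels of 83.6 ± 1.26 and 77.3 ± 7.99 CPM (SD, n = 2) differed by less than the spread in HD-homo. The log2 fold change was -0.11 (SE 0.20), and its 95% interval of -0.56 to 0.33 leaves room for a change in either direction (edgeR adjusted p = 0.773).

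Hip1r (ENSMUSG00000000915, chromosome 5, 123973628 to 124005558, plus strand) had 1201, 1794, 805 and 1422 counts, or 85.0 and 118 CPM in control against 62.6 and 104 CPM in HD-homo. In each group replicate 2 was the higher library, and HD-homo replicate 2 lay above control replicate 1. The means of 101 ± 23.2 and 83.2 ± 29.1 CPM (SD, n = 2) gave a log2 fold change of -0.28 (SE 0.26, 95% interval -0.85 to 0.28, edgeR adjusted p = 0.526). Left without HD-homo replicate 1 it was 0.05, and -0.69 when HD-homo replicate 2 was dropped, so these libraries give no direction. Hip1r shares 918 exon bases with Vps37b, an ESCRT gene on the opposite strand that held 9761 counts over the libraries against 5222 for Hip1r. The strand setting of the counting is not given in the sources used here, so reads of the 2 genes may be mixed. Vps37b was at 185, 145, 185 and 187 CPM (log2 fold change 0.17, SE 0.21, edgeR adjusted p = 0.644).

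Per kilobase of the longest coding transcript, Hip1 made up 46.1% and 37.6% of the pair in control and 53.2% and 37.2% in HD-homo. The groups overlapped, and in each group replicate 2 had the smaller share of Hip1.

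Of 24 genes of clathrin-mediated endocytosis, 23 were tested, 1 was higher and 1 was lower, beside 10.4% and 10.9% of all tested genes. Their median log2 fold change was -0.10. Dnm1, the dynamin best known from synaptic vesicle recycling, rose from 56.5 and 64.9 to 115 and 158 CPM (log2 fold change 1.17, SE 0.22, edgeR adjusted p = 0.00157), while the widely made Dnm2 was at 67.1 and 95.1 CPM in control against 54.2 and 88.7 CPM in HD-homo (log2 fold change -0.18, SE 0.26). Snap91, the neuronal clathrin assembly protein AP180, was at 3.11 and 2.23 CPM in control and had 0 counts in both HD-homo libraries. It passed the count filter only through the control libraries, so its call follows partly from the filter. When every library had to hold at least 10 counts, Snap91 was not tested and the list held 0 lower genes. With 3 counts set as the floor for the HD-homo libraries together, it was at least 23.5-fold lower (edgeR adjusted p = 5.11e-05). This bound was 12.1 with HD-homo replicate 1 left out, 11.4 with HD-homo replicate 2 left out, and 19.8 or 27.5 with control replicate 1 or 2 left out. Picalm, its widely made relative, was at 186 and 253 CPM in control against 121 and 157 CPM in HD-homo (log2 fold change -0.67, adjusted p = 0.0533), just short of the test. The clathrin chains and the AP2 subunits were not called, with log2 fold changes from -0.58 for Cltb to 0.21 for Ap2a2. Without a library the count of lower genes in this list was 2 (without control replicate 1), 1, 1 and 3 (without HD-homo replicate 2).

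Zdhhc17 encodes HIP14, a palmitoyltransferase with ankyrin repeats that attaches palmitate to huntingtin. The gene (ENSMUSG00000035798) lies on chromosome 10 from 110941780 to 111010140 on the minus strand. Its counts of 220, 322, 211 and 179 gave 15.6 and 21.1 CPM in control against 16.4 and 13.1 CPM in HD-homo. HD-homo replicate 1 lay between the control libraries. The means were 18.4 ± 3.95 and 14.7 ± 2.36 CPM (SD, n = 2), with a log2 fold change of -0.32 (SE 0.26, 95% interval -0.88 to 0.25, edgeR adjusted p = 0.471).

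Zdhhc13 (HIP14-like), the other enzyme with ankyrin repeats and also a huntingtin binder, was at 21.4, 32.0, 23.8 and 20.5 CPM, a log2 fold change of -0.27 (SE 0.26, edgeR adjusted p = 0.548). The 2 genes kept nearly the same proportion in all libraries. Zdhhc17 made up 27.9%, 25.9%, 26.8% and 25.2% of the pair per kilobase, so the range over libraries was under 3 percentage points.

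Of the 23 other palmitoyltransferase genes of the DHHC family, 17 were tested, 1 was higher and 3 were lower. Over all tested genes 10.4% were called higher and 10.9% lower, so these counts say little by themselves. The median log2 fold change of the list was -0.07. Zdhhc16, named above for its likeness to Hap1, had a log2 fold change of -1.37 (SE 0.20, edgeR adjusted p = 2.07e-04). Zdhhc2, an enzyme that palmitoylates PSD-95, fell from 41.7 and 30.3 to 15.8 and 9.20 CPM (log2 fold change -1.53, adjusted p = 0.00165). Zdhhc1 was lower, at 13.2 and 11.2 CPM in control against 7.24 and 5.40 CPM in HD-homo (log2 fold change -0.94, adjusted p = 0.0255), and Zdhhc20 was higher, at 44.7, 50.6, 87.8 and 78.3 CPM (log2 fold change 0.80, adjusted p = 0.0139). The call of Zdhhc1 was lost without control replicate 1 or HD-homo replicate 2, and that of Zdhhc20 without control replicate 1 or HD-homo replicate 1.

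Sh3gl3 encodes endophilin A3, which bends membranes through a BAR domain and binds the proline-rich stretch next to the glutamine repeat through its SH3 domain. The gene (ENSMUSG00000030638) lies on chromosome 7 from 82173840 to 82307419 on the plus strand. It had 65 and 50 counts in control and 92 and 59 in HD-homo, or 4.60, 3.28, 7.16 and 4.31 CPM. HD-homo replicate 2 lay between the control libraries, and only HD-homo replicate 1 was above both. The means were 3.94 ± 0.93 and 5.73 ± 2.01 CPM (SD, n = 2), with a log2 fold change of 0.54 (SE 0.34, 95% interval -0.19 to 1.27, edgeR adjusted p = 0.325). At these counts the interval spans no change and a difference of more than 1 on the log2 scale.

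Sh3gl3 was a minor endophilin in these cells. Per kilobase it made up 3.14% and 1.97% of the endophilin A genes in control and 4.66% and 2.23% in HD-homo, while Sh3gl1 (endophilin A2) held 95.3 to 98.0% and Sh3gl2 (endophilin A1), the form known from nerve terminals, had 0 counts in all libraries. Sh3gl1 was at 179, 205, 184 and 238 CPM (log2 fold change 0.13, SE 0.21). The endophilin B genes Sh3glb1, at 141, 138, 158 and 122 CPM, and Sh3glb2, at 93.4, 82.2, 73.4 and 92.2 CPM, had log2 fold changes of 0.01 and -0.08.

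Pacsin1 encodes syndapin 1, an F-BAR protein of neurons known to bind huntingtin more firmly when the repeat is long. The gene (ENSMUSG00000040276) lies on chromosome 17 from 27655509 to 27711482 on the plus strand. It had 3 and 0 counts in control and 3 and 4 counts in HD-homo, or 0.21, 0, 0.23 and 0.29 CPM, and was not tested. A count of 3 corresponds to between 0.197 and 0.233 CPM in these libraries, so its level was near what a count of 0 allows in each of them. The ratio of the group sums was 2.58 with a 95% counting interval of 0.589 to 15.5, which covers counting error only, and no difference was detectable at this depth.

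The other syndapin genes held nearly all of the reads of the family. Pacsin2, which is made in many tissues, was at 285, 280, 275 and 298 CPM (log2 fold change 0.02, SE 0.20), and held 73.8%, 70.5%, 68.1% and 59.4% of the family per kilobase. Pacsin3, known from muscle, was at 54.5 and 63.1 CPM in control against 69.6 and 110 CPM in HD-homo and held 26.1%, 29.5%, 31.9% and 40.6%. The groups did not overlap in Pacsin3, but its log2 fold change of 0.61 (SE 0.24) did not pass the test (edgeR adjusted p = 0.103), and of the libraries left out in turn it passed only without HD-homo replicate 1 (0.92, adjusted p = 0.00993), while without HD-homo replicate 2 it was at 0.24 (adjusted p = 0.631).

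**Figure D3:**
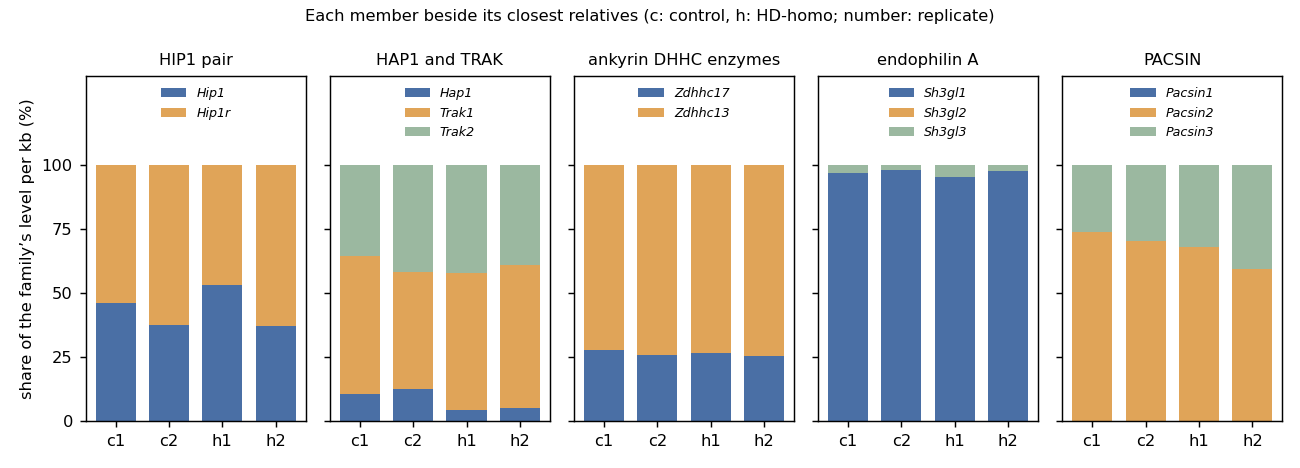
Share of the summed level per kilobase of the longest coding transcript (percent, axis from 0) that each gene of 5 small families held in each library, c for control and h for HD-homo with the replicate number. Hap1 shrinks from 10.4% and 12.4% to 4.30% and 4.92%, the Zdhhc17 pair is nearly level, Sh3gl3 stays at or under 4.66%, and Pacsin1 is too small to see.

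Over the 10 relatives of the members that are described above (Trak1, Trak2, Zdhhc13, Ikbkg, Sh3gl1, Sh3gl2, Sh3glb1, Sh3glb2, Pacsin2 and Pacsin3), 9 were tested and 0 were called in either direction by edgeR, DESeq2 or limma-voom, with 1 at an unadjusted p under 0.05 in edgeR, with log2 fold changes from -0.27 to 0.61 and a median of 0.01. With 9 genes and 21.2% of all genes called, a count of 0 says little by itself.

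Of 16 genes of microtubule transport that work with HAP1, 14 were tested and 2 were lower, beside 10.9% of all tested genes. Their median log2 fold change was -0.14. Again 0 were called higher by edgeR, DESeq2 or limma-voom, with 1 at an unadjusted p under 0.05 in edgeR. Kif5c, a kinesin heavy chain enriched in neurons, was at 13.5 and 20.8 CPM in control against 0.47 and 0.22 CPM in HD-homo (log2 fold change -5.62, SE 0.44, edgeR adjusted p = 7.41e-07). Its standard error may be too small with so few HD-homo counts, and it passed the count filter only through control. When every library had to hold at least 10 counts, Kif5c was not tested and the list held 1 lower gene. Kif5b, the widely made kinesin heavy chain, was at 69.1, 81.2, 74.1 and 86.2 CPM, with overlapping groups and a log2 fold change of 0.09 (SE 0.21). Dync1h1, the heavy chain of cytoplasmic dynein, was lower, at 39.2 and 41.0 CPM in control against 19.5 and 15.4 CPM in HD-homo (log2 fold change -1.20, SE 0.24, adjusted p = 0.00194). Dctn1, the dynactin subunit that HAP1 binds, was at 144, 208, 125 and 213 CPM (log2 fold change -0.06, SE 0.27), and Ahi1, a known stable partner of HAP1, at 6.58, 7.75, 5.76 and 6.72 CPM (log2 fold change -0.20, SE 0.28). Kif5c, Snap91 and Hap1 were lower, as was the summed level of the pan-neuronal markers given above, mostly through Stmn2 and Uchl1. Dnm1, also named above, was higher, and the pan-neuronal markers Tubb3 and Map2 were not called (log2 fold changes 0.24 and -0.25). The part of the marker lists in these differences was not tested.

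**Figure D4:**
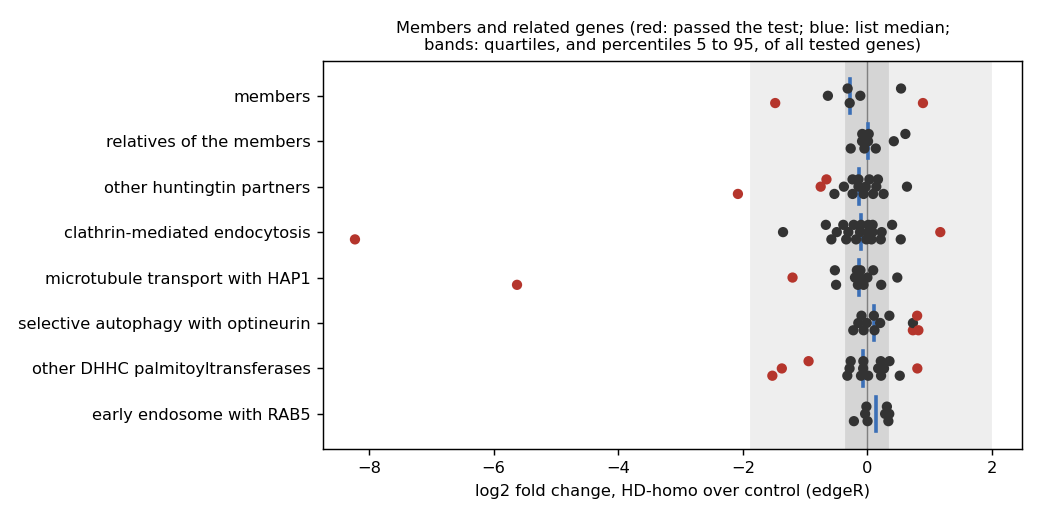
Log2 fold change of HD-homo over control for each tested member and each tested gene of 7 related lists, red where the adjusted p was under 0.05, with a blue bar at the median of each list and grey bands for the quartiles (-0.35 to 0.33) and percentiles 5 to 95 (-1.86 to 1.98) of all 12961 tested genes. Most genes of every list lie near 0, and the Snap91 point at the far left is a fitted value with 0 counts in HD-homo, not a bound.

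Counted once each, the related lists held 112 genes, of which 100 were tested, 5 were higher and 9 were lower, with a median log2 fold change of -0.03. Beside 10.4% higher and 10.9% lower over all tested genes, the related genes were not called more often than genes at large. These lists were chosen with earlier results of these data known, so the comparison is not an independent one.

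The order of the members by level, per kilobase of the longest coding transcript, was Hip1r, Hip1, Optn, F8a, Zdhhc17, Hap1, Sh3gl3 and Pacsin1 in control. The mean levels were 15.1, 10.7, 7.24, 5.34, 4.04, 3.30, 2.39 and 0.023 CPM per kilobase in that order, and no 2 neighbours overlapped between libraries, although the lower library of F8a (4.66) and the higher one of Zdhhc17 (4.65) nearly met. In HD-homo the order was Optn (13.4 CPM per kilobase), Hip1r (12.4), Hip1 (9.87), Sh3gl3 (3.48), F8a (3.44), Zdhhc17 (3.24), Hap1 (1.18) and Pacsin1 (0.058). There Optn and Hip1r, Hip1r and Hip1, Sh3gl3 and F8a, and F8a and Zdhhc17 overlapped, so only the steps from Hip1 down to Sh3gl3, from Zdhhc17 to Hap1 and from Hap1 to Pacsin1 exceeded the spread. Hap1 thus stood below Zdhhc17 and above Sh3gl3 in control and below both in HD-homo. Divided by all merged exons instead, a length chosen after seeing the data, Optn stood below F8a in control (5.04 and 5.34 CPM per kilobase, overlapping) and below Hip1r in HD-homo (9.36 and 11.3, overlapping). By that length Hap1 stood above Zdhhc17 in control (2.91 and 2.60, overlapping) and overlapped Sh3gl3 in HD-homo (1.04 and 1.33).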

How the data were processed

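PS-RRA-mRNA-Seq measured polysome mRNA after a harringtonine run-off in 2 control and 2 HD-homo libraries. The deposited values were whole-number counts per gene and library. The submitters' processing notes name cutadapt, Bowtie 1.1.2, RSEM 1.3.0, GRCm38.p5 (mm10) and DESeq2. The authors used Bowtie to discard rRNA and tRNA reads and RSEM to assign the rest to genes. The labels name directional libraries of poly(A) RNA and describe the RNA as total RNA. How strand was set in the counting, and whether RSEM's values were rounded, is not given in the sources used here, so reads of overlapping or near-identical genes may be mixed. A second table, in which each library's counts were divided by a single factor, was not used here.

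Genes that passed edgeR's filterByExpr (edgeR 4.0.16 in R 4.3.3) were fitted with TMM factors of 1.002, 0.985, 1.040 and 0.974, and HD-homo was set against control by the quasi-likelihood test, with Benjamini-Hochberg adjustment over 12961 genes and calls at 0.05. Standard errors came from the F statistic. Libraries of a group differed by more than counting noise (chi-square per degree of freedom 29.0 in control and 30.5 in HD-homo), and the median biological coefficient of variation was 17.8%. The test was checked on simulated counts. Positions and lengths were taken from GENCODE M21 (GRCm38) by gene ID, for 12950 of the tested genes, and this is not the release the authors counted on. Promoter windows came from RefSeq. The order of levels and the shares of gene families were computed per kilobase.

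The members were chosen by name, not by their values. Earlier results of these data were known when the members and gene lists were chosen. The text names all members, their relatives, Htt, up to 4 called genes of lowest p per related list and the 3 profiles nearest to the member with the largest change. Other genes were named after their values were seen: the cell type markers, Sqstm1, Tbk1, Rab5a, Appl2, Dnm2, Picalm, Cltb, Ap2a2, Kif5b, Dctn1, Ahi1 and Vps37b. Settings that were varied were the scaling, the count filter, the tool (DESeq2 1.42.0 and limma-voom in limma 3.58.1), the replicate number as a block, a fold threshold, each library left out in turn and the length used per kilobase. A marker gene is not reported here.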

Additional observations from a re-analysis of the deposited data

How the results depend on the processing

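Each member and list was recomputed under 11 alternative settings and a fold threshold. Hap1, Hip1, Zdhhc17 and Sh3gl3 kept their direction and their side of the threshold under all 11, but with 1 library left out at a time the log2 fold change ran from -0.21 to -0.011 for Hip1, from -0.52 to -0.081 for Zdhhc17, from 0.15 to 0.86 for Sh3gl3 and from -0.90 to -0.39 for F8a. With at least 10 counts in every library, 1698 genes were called (815 higher and 883 lower) of 2752. Fewer genes were tested, Kif5c and Snap91 among those that did not enter, and Dlg4 (adjusted p = 0.0506) and Rab8b (0.0604) were tested and lost their calls. With a log2 fold change over 1 also required, 0 members were higher and the related lists held 7 calls. Leaving out 1 library at a time gave 0 to 1 members higher and 9 to 12 called genes in the related lists, a log2 fold change from 0.81 to 0.99 for Optn and from -0.69 to 0.051 for Hip1r. Among uncalled relatives these ranges crossed 0 for Trak1 (-0.26 to 0.19), Trak2 (-0.35 to 0.15), Zdhhc13 (-0.53 to 0.051), Sh3gl1 (-0.060 to 0.32), Sh3glb1 (-0.17 to 0.18), Sh3glb2 (-0.26 to 0.089) and Pacsin2 (-0.037 to 0.094). Sh3glb1 was -0.0018 under limma-voom. Where a call was lost or turned without a library, the cause was not tested.

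The replicate numbers are shared by the groups, but nothing says that a number marks a shared batch. Over the 12961 tested genes, the deviation of replicate 1 from its group mean had a correlation of 0.445 between the groups. Only 2 pairs of same-numbered libraries exist. With the replicate block, 4476 of the 12961 tested genes were called (2126 higher and 2350 lower), beside 24 of the 100 tested in the related lists. By list these were 1 higher and 4 lower in microtubule transport, 1 and 5 in clathrin-mediated endocytosis, 1 and 4 among the other huntingtin partners, 1 and 3 among the other DHHC genes, 3 and 0 in selective autophagy, 1 and 0 among the relatives and 0 among the early endosome genes. More genes at large were called with the block too, so the counts by list say little by themselves. Then 2 members were lower, F8a with a log2 fold change of -0.64 (edgeR adjusted p = 0.0185) beside Hap1, Pacsin3 was higher (0.58), and Sh3glb1 was at -0.0012. The block changed no other call of a member. At 2 libraries a group the widest 95% interval of an uncalled member was that of Sh3gl3, from -0.19 to 1.27, which limits what could be seen.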
